A study of Mus musculus with 6 samples.

Results

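Surface proteins can be released from cells by membrane-bound proteases called sheddases, and this release is restrained by dedicated inhibitors. RNA levels and transcript structures of 10 such genes are described here: the ADAM proteases Adam9, Adam10 and Adam17, the membrane-type matrix metalloproteinases Mmp14 and Mmp15, the tissue inhibitors of metalloproteinases Timp1, Timp2, Timp3 and Timp4, and Reck. They were chosen by name as the proteolytic counterpart to cleavage of glycosylphosphatidylinositol (GPI) anchors, located by symbol in the mouse annotation, and make up 10 of 31266 genes quantified and 10 of 12045 tested. The cells were oligodendrocyte precursor cells (OPCs), dividing glia from which the myelin-forming oligodendrocytes of the central nervous system derive. There were 3 libraries from Gde3 KO cells and 3 from Gde3 WT cells, all on a C57BL/6 background. Both genotypes were isolated from the spinal cord of pups at postnatal day 0.5, using magnetic beads against A2B5, a ganglioside epitope of glial precursors. Both then spent 16 h on poly-L-lysine and laminin with PDGF at 10 ng/mL, CNTF at the same 10 ng/mL and forskolin at 5 µM. The series title links GDE3, the enzyme encoded by Gdpd2 that cleaves GPI anchors, to OPC proliferation through release of the CNTF receptor alpha. The labels give neither the deleted exons nor how many pups went into a culture, so the spread between libraries may be partly technical.

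ADAM10 and ADAM17 are transmembrane metalloproteases that cut the ectodomains of many surface proteins close to the membrane, among them Notch receptors, cadherins, growth factor precursors and cytokine receptors. MT1-MMP and MT2-MMP, encoded by Mmp14 and Mmp15, act on both matrix and surface proteins. TIMPs are secreted inhibitors that block these enzymes with different preferences. RECK is itself held by a GPI anchor and restrains ADAM10 and MT1-MMP; its anchor is known to be cut by GDE2, a relative of GDE3. All of these steps act on proteins, and an RNA level measures neither protease activity nor shedding.

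All values are in FPKM, the number of sequenced fragments scaled to transcript length and library depth, averaged over the annotated exonic bases of a gene, so that a base with nothing assembled counts as 0. The files gave an estimated depth of 36400000 fragments in WT replicate 1 and 43500000 to 49100000 fragments in the other 5 libraries. WT replicate 1 was in shorter pieces, with a median assembled transcript of 438 nt against 1173 to 1830 nt. The targeted gene Gdpd2 had 0.667, 1.497 and 1.78 FPKM in KO replicates 1 to 3, against 0, 2.79 and 2.85 FPKM in WT replicates 1 to 3. Exons 9 and 10 of its 16 exons, picked out from these same assemblies and counting pieces of any length, were assembled over 0% in all KO libraries. In WT, exon 9 was assembled in full in all libraries and exon 10 over 21.9%, 100% and 100%. The 7 OPC markers checked were present in every library, the lowest being Cspg4 at 37.5 FPKM. The summed level of 10 microglia and macrophage markers was 122.5 to 205.6 FPKM in KO and 68.7 to 106.5 FPKM in WT, without overlap. The sum over 7 astrocyte markers was 203.5 FPKM in KO replicate 1 and 147.5 FPKM in WT replicate 1, both lower than in the other 4 libraries.

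Annotated transcript forms of Adam9 and of Adam17 differ in a short stretch, printed here from the GENCODE M21 transcripts (GRCm38, minus strand, 5′ to 3′). Both Adam9 forms were met in the assemblies, but of Adam17 only the form without the exon. Capitals mark bases that one form holds and the other lacks, and 15 bases on either side are in lower case. The first pair is the end of Adam9 exon 20, chr8:24962860-24962913, which begins at base 2377 of a coding sequence of 2589 bases.
Adam9, longer exon 20: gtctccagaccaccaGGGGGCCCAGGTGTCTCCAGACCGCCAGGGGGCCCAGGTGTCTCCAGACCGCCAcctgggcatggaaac
Adam9, shorter exon 20: gtctccagaccaccacctgggcatggaaac
The second pair is a 57-nt exon between exons 6 and 7 of the main Adam17 transcript, chr12:21346017-21346073, which begins at base 754 of a coding sequence of 2538 bases.
Adam17, with the exon: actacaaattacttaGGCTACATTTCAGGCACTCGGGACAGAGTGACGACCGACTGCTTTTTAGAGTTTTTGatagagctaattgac
Adam17, without the exon: actacaaattacttaatagagctaattgac
Both stretches are multiples of 3 bases long, so either form keeps the reading frame. The 54 bases of Adam9 are an exact double copy of a unit of 27 bases, and the 15 bases before them differ from their own last 15 bases at 1 position.

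All 10 genes were assembled in all 6 libraries, and their order hardly changed between libraries. Mmp15 was the highest in every library, with a lowest value of 73.4, a median of 102.3 and a highest value of 106.4 FPKM. Timp2 (48.1, 54.3 and 71.0 FPKM) and Timp3 (46.3, 50.6 and 56.4 FPKM) followed. Their ranges overlapped, and Timp2 was the higher in 5 of 6 libraries. Adam9 (36.1 to 42.3 FPKM) was 4th and Adam10 (24.7 to 35.4 FPKM) 5th in every library. Mmp14 (15.8 to 23.8), Adam17 (13.7 to 19.2) and Timp1 (8.81 to 20.1 FPKM) had overlapping ranges and changed places. Timp4 (2.28 to 3.33 FPKM) was 9th and Reck (0.928 to 2.30 FPKM) 10th in every library, although their ranges overlapped slightly. Against all tested genes, the mean of Mmp15 stood at the 95.6th percentile, those of Timp2 and Timp3 at the 91.3rd and 90.1st, and that of Reck at the 7.87th. Averaged over assembled bases only, Mmp14 moved up to 31.6 ± 4.53 FPKM (SD, n = 6), above Adam10 at 29.7 ± 3.85 FPKM, and Timp1, at 17.6 ± 7.03 FPKM, passed Adam17. Timp4 moved most, to 9.74 ± 3.46 FPKM (4.79 to 14.5 FPKM), so that its range no longer overlapped that of Reck (1.39 to 2.80 FPKM). The order of Mmp14 and Adam10 thus depended on how unassembled bases are counted. For Mmp14, nearly all of these bases lay outside its main transcript.

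**Figure D1:**
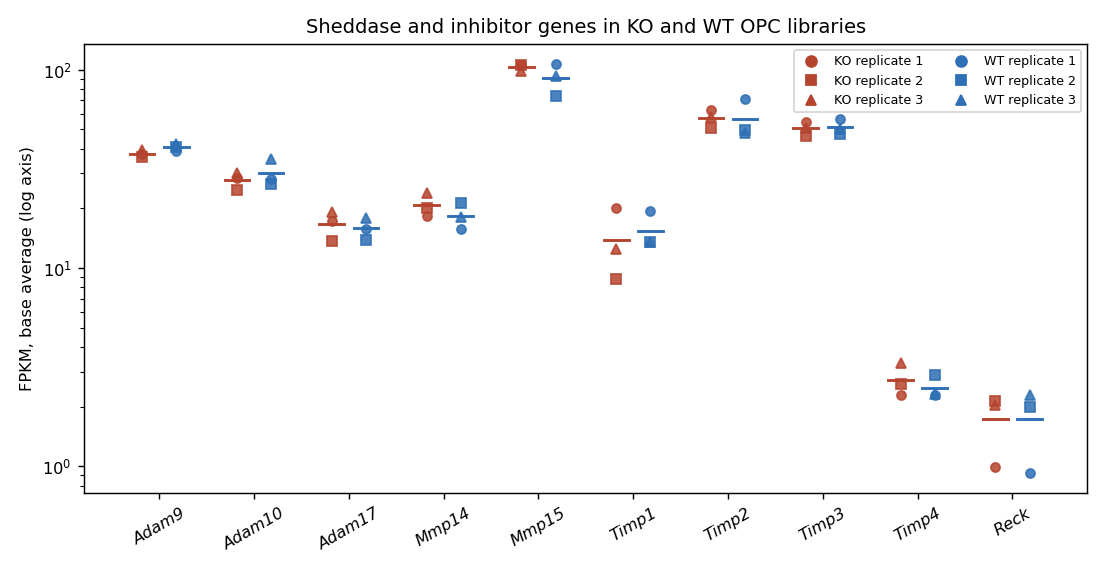
FPKM (base average, log axis) of the 10 genes in the 3 KO and 3 WT libraries; points are libraries, marked by replicate number, and bars are group means. KO and WT points overlap for every gene, from Mmp15 at 73.4 to 106.4 FPKM down to Reck at 0.928 to 2.30 FPKM.

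The question for the genotypes was whether loss of GDE3 changed the RNA of the proteolytic release machinery. None of the 10 genes passed the test between KO and WT by limma, a linear model fitted across all tested genes with two-sided tests and Benjamini-Hochberg adjustment at 0.05. The count was 0 of 10, against 0.00830% of all tested genes (0 higher and 1 lower in KO), and 0 of 10 had an unadjusted p under 0.05, against 1.62% of all. KO and WT values overlapped for all 10, whereas they did not for 5.06% of all tested genes (KO above in 2.03% and below in 3.03%). On the log2(FPKM + 1) scale, which understates changes of low genes, 6 were higher and 4 lower in KO, and the signs of Adam17, Mmp14, Timp4 and Reck turned when FPKM was summed over transcripts instead. That sum moved the median of all genes to -0.25. Relative to that median, Mmp14 stayed higher in KO (0.10), while Adam17 (-0.12), Timp4 (-0.90) and Reck (-0.32) were lower. Adam10 (0.022) and Timp3 (0.22), lower in KO without summing, were then higher. Mmp15 (0.67), Timp2 (0.27), Adam9 (-0.060) and Timp1 (-0.21) kept their direction. The median difference of the 10 genes was 0.021, beside -0.0055 for all tested genes, of which 48.6% were higher in KO. Differences ran from -0.21 for Timp1 to 0.20 for Mmp15, and every limma adjusted p was 0.9999. In bulk RNA, fewer cells of a type and less RNA per cell cannot be told apart.

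**Figure D2:**
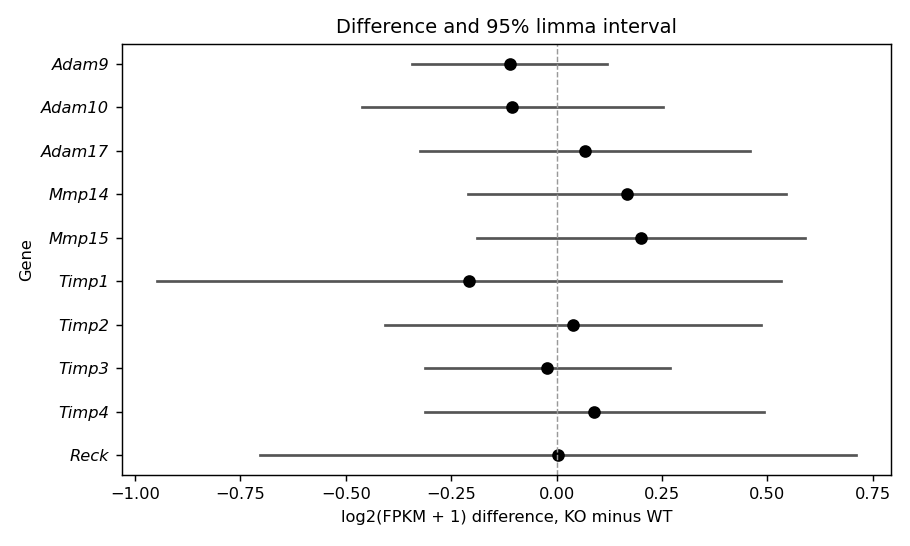
Difference in log2(FPKM + 1), KO minus WT, for each gene (point) with its 95% limma interval (line); the dashed line marks 0. Every interval includes 0, the narrowest being that of Adam9 (-0.34 to 0.12) and the widest that of Timp1 (-0.95 to 0.53).

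Among the ADAM proteases, Adam9, which can cut growth factor precursors such as HB-EGF, was at 37.4, 36.1 and 39.4 FPKM in KO replicates 1 to 3 and at 39.1, 40.8 and 42.3 FPKM in WT replicates 1 to 3. Only KO replicate 3 lay within the WT range. The difference was -0.11 ± 0.095 on the log2 scale (SE; 95% interval -0.34 to 0.12), the narrowest interval of the 10 genes. Within same-numbered pairs Adam9 was lower in KO in 3 of 3, the only one of the 10 genes with the same direction in every pair, where 15.8% of all tested genes were lower and 13.6% higher in all 3. With the pairs as a block, its limma adjusted p was 0.809. Adam9 also had the smallest spread over the 6 libraries, with a coefficient of variation of 5.66%. Adam10, which releases Notch receptors and N-cadherin, was at 28.6, 24.7 and 30.2 FPKM in KO and 28.3, 26.7 and 35.4 FPKM in WT (difference -0.11 ± 0.15 SE). WT replicate 3 was the highest and KO replicate 2 the lowest. Adam17, the TNF-alpha converting enzyme, was at 17.3, 13.7 and 19.2 FPKM in KO and 15.7, 13.9 and 17.9 FPKM in WT (0.068 ± 0.16 SE). Replicate 2 was the lowest and replicate 3 the highest in both genotypes.

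Among the membrane-type metalloproteinases, Mmp14, whose product activates pro-MMP2 at the cell surface, was at 18.4, 20.03 and 23.8 FPKM in KO and at 15.8, 21.3 and 18.1 FPKM in WT. Its difference was 0.17 ± 0.15 (SE; 95% interval -0.21 to 0.54), and 0.068 without KO replicate 3 or without WT replicate 1 and 0.27 without WT replicate 2. Mmp15 was at 105.6, 105.6 and 99.0 FPKM in KO and at 106.4, 73.4 and 92.7 FPKM in WT, giving 0.20 ± 0.16 (SE; 95% interval -0.19 to 0.59). The lowest value, WT replicate 2, came from an assembled transcript of 8999 nt that ran 3679 nt past the annotated 3′ end, while no other library's longest Mmp15 transcript passed that end. What that transcript did to the value was not tested. Without WT replicate 2 the difference was 0.057. Less of Mmp15 was assembled in KO (85.2%, 95.4% and 87.5% of its bases) than in WT (98.6%, 100% and 95.5%). KO replicate 2 and WT replicate 3 were nearly equal, and the share of all genes with extents apart in this way was not counted. Over assembled bases only, Mmp15 was at 123.8, 110.7 and 113.1 FPKM in KO and at 107.9, 73.4 and 97.0 FPKM in WT, without overlap, and that difference did not pass the test either (0.33 on the log2 scale, limma adjusted p = 0.99999). The share of all genes without overlap was not counted on this basis, and was 5.06% with all bases counted. Mmp15 exceeded Mmp14 in every library, by 5.06 ± 0.821 times in KO and 5.11 ± 1.65 times in WT (SD, n = 3 each). Over assembled bases only, a basis chosen for ratios after the data were seen, it did so by 3.50 ± 0.632 times in KO and 3.23 ± 1.05 times in WT.

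The TIMP inhibitors spanned levels from 2.28 FPKM, the lowest of Timp4, to 71.0 FPKM, the highest of Timp2, and overlapped between genotypes throughout. Timp1 was at 20.1, 8.81 and 12.5 FPKM in KO and at 19.3, 13.6 and 13.5 FPKM in WT (difference -0.21 ± 0.30 SE; 95% interval -0.95 to 0.53). Replicate 1 was the highest in both genotypes, and KO replicate 2 the lowest of all. Without KO replicate 2 the difference was 0.053. Timp2, which inhibits MT1-MMP and also brings pro-MMP2 to it, was at 62.5, 51.0 and 57.6 FPKM in KO and at 71.0, 49.6 and 48.1 FPKM in WT (0.038 ± 0.18 SE). Timp3, the matrix-bound inhibitor that also blocks ADAM17, was at 54.5, 46.3 and 50.8 FPKM in KO and at 56.4, 47.3 and 50.4 FPKM in WT (-0.021 ± 0.12 SE; 95% interval -0.31 to 0.27). Timp3 varied little over the 6 libraries, with a coefficient of variation of 7.72%, where that of Timp1 was 29.5%. Timp4 was at 2.28, 2.59 and 3.33 FPKM in KO and at 2.28, 2.89 and 2.32 FPKM in WT (0.090 ± 0.17 SE).

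Reck, the gene among the 10 that encodes a GPI-anchored protein, had the lowest level. It was at 0.999, 2.14 and 2.04 FPKM in KO and at 0.928, 1.98 and 2.30 FPKM in WT. Replicate 1 lay under the other libraries in both genotypes, and the genotype means were 1.73 ± 0.631 FPKM in KO and 1.74 ± 0.717 FPKM in WT (SD, n = 3 each). The difference was 0.0027 ± 0.29 (SE), with a 95% interval of -0.70 to 0.71. Changes inside those limits are not excluded by these libraries, and the limits are not adjusted for the number of genes tested. Leaving out single libraries moved it between -0.23 (without WT replicate 1) and 0.21 (without KO replicate 1).

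Inhibitor and protease levels were also set against each other within each library, since inhibitor and enzyme bind each other. Timp2 exceeded Mmp14 by 3.41, 2.55 and 2.41 times in KO and by 4.51, 2.33 and 2.65 times in WT. Over assembled bases only, these ratios were 2.11, 1.602 and 1.505 in KO and 2.82, 1.49 and 1.67 in WT. Timp3 exceeded Adam17 by 3.15, 3.37 and 2.65 times in KO and by 3.58, 3.41 and 2.81 times in WT. Both inhibitors were thus above their partner enzyme in all 6 libraries. Timp1 was 0.704, 0.357 and 0.413 of Adam10 in KO and 0.683, 0.509 and 0.381 of it in WT. Reck was 0.0350, 0.0866 and 0.0676 of Adam10 in KO and 0.0328, 0.0744 and 0.0649 of it in WT. These are ratios of RNA levels per length, and the values of KO and WT overlapped for each of them. Within same-numbered pairs, Timp3 over Adam17 was lower in KO in 3 of 3 and Reck over Adam10 higher in 3 of 3. Over assembled bases only, each of these directions was seen in 2 of 3 pairs. A further ratio, Timp3 over Adam10, was higher in KO in 2 of 3 pairs, and in 3 of 3 over assembled bases only. Of all tested single genes, 15.8% were lower and 13.6% higher in KO in all 3 pairs. Such a share was not counted for ratios. No test was made of the ratios.

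Several of the genes differed by replicate number in both genotypes. Timp1, Timp2, Timp3 and Mmp15 were higher in both replicate 1 libraries than in the other 4, and Timp4 and Reck lower, so 6 of 10 genes set replicate 1 apart, Mmp15 in KO by less than the printed digits show. Of all tested genes, 18.7% lay above and 21.3% below in the same way. For Timp1 the replicate 1 value was 1.89 times the mean of replicates 2 and 3 in KO and 1.43 times in WT, and for Reck 0.478 times in KO and 0.434 times in WT. Over assembled bases only, neither Reck nor Mmp15 set replicate 1 apart. Reck was then highest in WT replicate 1 (2.80 FPKM). Mmp15 in WT replicate 1 (107.9 FPKM) lay under KO replicates 2 and 3 (110.7 and 113.1 FPKM). With all bases counted, Gfap, the astrocyte filament gene, was lowest in replicate 1 of both genotypes. It was at 57.9, 178.3 and 400.9 FPKM in KO replicates 1 to 3 and 32.1, 262.9 and 268.2 FPKM in WT replicates 1 to 3. Aqp4, Slc1a3, Slc1a2 and Aldh1l1 were also lowest there in both genotypes. S100b in KO replicate 1 (26.1 FPKM) was above KO replicate 2 (20.5 FPKM), and Gja1 in WT replicate 1 (22.0 FPKM) above WT replicate 2 (17.3 FPKM). Cldn5, an endothelial junction gene, was highest in replicate 1 of both, with 7.97, 4.44 and 1.14 FPKM in KO and 8.86, 1.04 and 1.66 FPKM in WT. Of the other endothelial markers, Pecam1, Cdh5 and Flt1 were also highest there in both genotypes. Kdr was lowest there in WT (1.52, 1.58 and 1.61 FPKM), and Tek was at 0 in all WT libraries. The part of these cell types in the replicate difference was not tested.

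**Figure D3:**
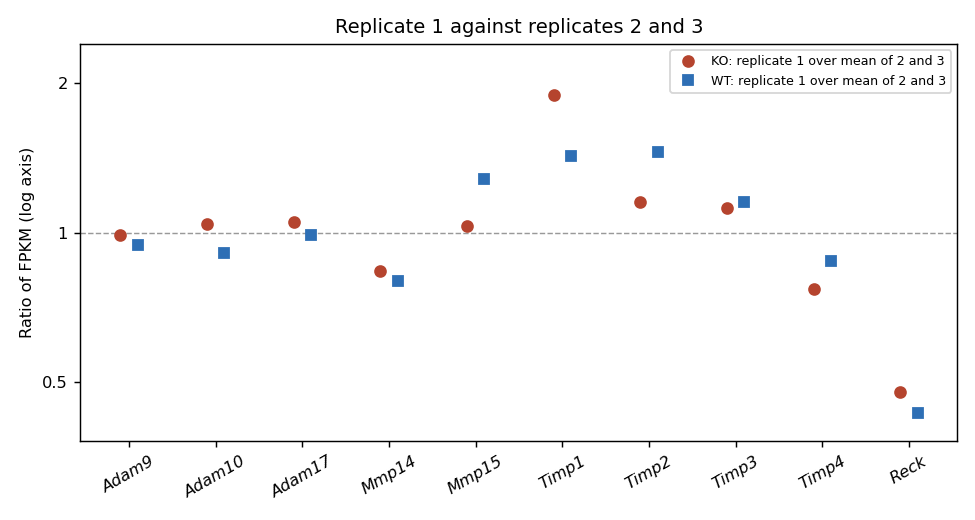
FPKM of replicate 1 divided by the mean of replicates 2 and 3 (log axis), for KO (circles) and WT (squares); the dashed line marks equality. Timp1 lay at 1.89 in KO and 1.43 in WT, Reck at 0.478 in KO and 0.434 in WT, and Adam9 at 0.991 in KO and 0.943 in WT. Over assembled bases only, Reck was highest in WT replicate 1 (2.80 FPKM).

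The assemblies showed which transcript of each gene was present. Timp2, Timp3, Mmp15 and Adam10 had all annotated splice junctions of their main transcript, in 1 unbroken chain, in 6 of 6 libraries. Timp2 and Timp3 were single assembled transcripts throughout. Mmp14 has annotated alternatives for its last exon, and all 6 libraries held the junction to the proximal one (25.6 to 38.4 FPKM) and none the junction to the distal one. Between 61.0% and 62.0% of its annotated bases were assembled in every library. Its main transcript, which ends in the proximal exon, holds 2596 of the 4184 bases counted. Every exon of that transcript was assembled over 95.1% or more in each library. For Adam17, the junction that skips the 57-nt exon printed above was present in all 6 libraries, at 17.96, 13.9 and 19.6 FPKM in KO and 20.9, 14.6 and 18.4 FPKM in WT. Neither junction of that exon was assembled in any library.

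Adam9 appeared in 1 form per library at exon 20. The shorter exon was assembled in KO replicate 1 (39.2 FPKM) and in WT replicates 2 and 3 (43.3 and 43.8 FPKM). The longer exon was assembled in KO replicates 2 and 3 (36.5 and 39.9 FPKM) and in WT replicate 1 (41.8 FPKM). The forms did not follow genotype or replicate number. The forms differ by the 54 bases printed above, both copies of the 27-base unit. Whether reads could be placed on both forms was not tested. Timp1 was assembled over 67.0% of its bases in WT replicate 1 and over 84.1% or more in the other 5 libraries. It held both annotated acceptors of exon 2, which lie 3 nt apart in the 5′ untranslated region, in all 6 libraries. The upstream acceptor took 31.7%, 36.9% and 44.4% of the junction FPKM in KO and 29.4%, 40.8% and 61.8% in WT, with overlap between genotypes.

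**Figure D4:**
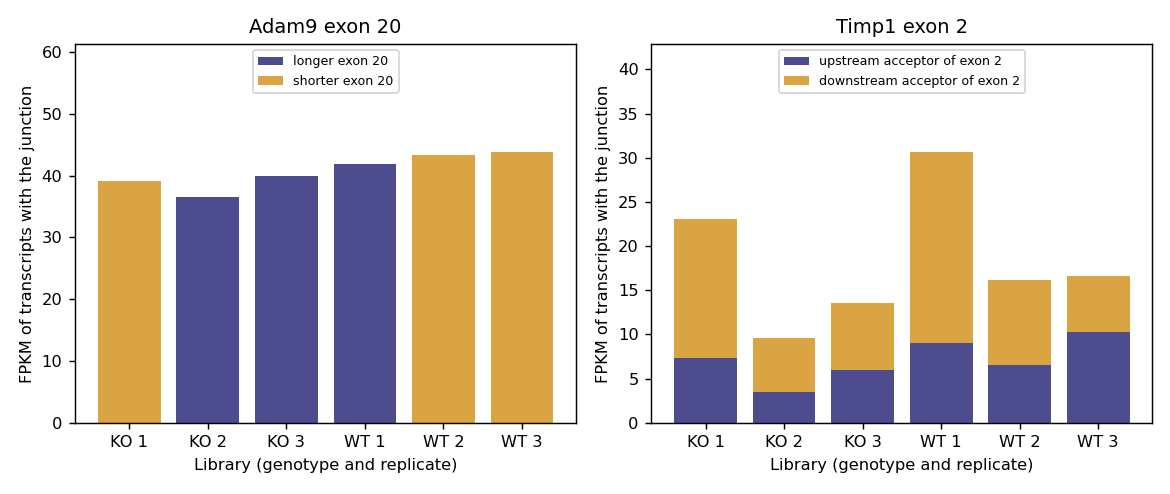
FPKM of assembled transcripts that hold each alternative junction of Adam9 exon 20 (left) and Timp1 exon 2 (right), in KO replicates 1 to 3 and WT replicates 1 to 3. Each library has a single Adam9 form, the shorter one in KO replicate 1 and WT replicates 2 and 3, and both Timp1 acceptors.

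Timp4 was assembled over 47.7% of its bases at most, and Reck unevenly between libraries. Reck, with 20 junctions in its main transcript, had all of them in KO replicates 2 and 3 and WT replicate 3 and 19 in WT replicate 2, but 9 in KO replicate 1 and 7 in WT replicate 1. Its exonic bases were assembled over 71.9%, 95.5% and 97.3% in KO and over 33.2%, 95.6% and 97.8% in WT. The low Reck values of both replicate 1 libraries stand beside low assembled extent. Over assembled bases only, Reck was at 1.39, 2.24 and 2.096 FPKM in KO and 2.80, 2.07 and 2.35 FPKM in WT, where WT replicate 1 is the highest and not the lowest. For Timp4, the annotated last exon of 4592 nt was assembled over 42.1%, 15.1% and 12.6% in KO and 40.5%, 9.89% and 10.6% in WT. The other 9 genes had at least 61.0% of their bases assembled in every library, except Reck in WT replicate 1.

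**Figure D5:**
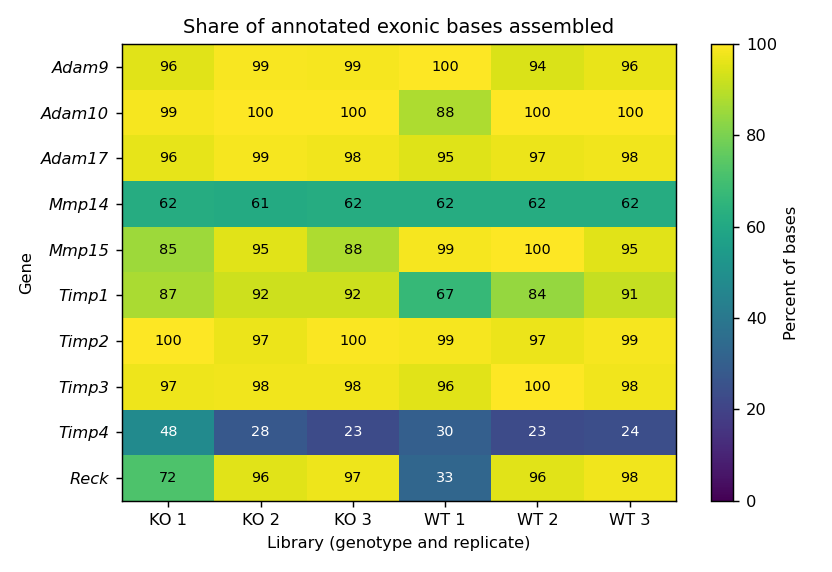
Percent of the annotated exonic bases of each gene covered by assembled transcripts of 300 nt or more, per library; lighter cells are more complete. Timp4 was incomplete in all 6 libraries, and Reck in KO replicate 1 (71.9%) and WT replicate 1 (33.2%). Mmp14 stayed at 61.0% to 62.0%, although every exon of its main transcript was assembled over 95.1% or more.

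In the genome (mm10), 3 of the 4 TIMP genes lie inside synapsin genes on the opposite strand. Timp1 (chromosome X, 20870166 to 20874735, plus strand) lies within Syn1, Timp3 (chromosome 10, 86300372 to 86349506, plus strand) within Syn3 and Timp4 (chromosome 6, 115241892 to 115252205, minus strand) within Syn2. The sources used here do not state whether the libraries keep strand, so reads from the 2 strands cannot be told apart beyond what splicing shows. Exons of Timp1 and Timp3 share 0 bases with another gene's exons, and those of Timp4 share 90, which were left out of its value. Syn1 was at 20.4, 21.7 and 19.0 FPKM in KO and 29.0, 22.6 and 17.9 FPKM in WT, and Syn3 stayed under 1 FPKM in all 6 libraries. Syn2, the host of Timp4, was at 6.42, 6.91 and 7.52 FPKM in KO and 10.9, 9.08 and 8.24 FPKM in WT, lower in KO without overlap, as were 3.03% of all tested genes. The part of Syn2 in the Timp4 values was not tested.

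The genes around the sheddases were described through lists of their regulators, relatives and substrates. Of all tested genes, 48.6% were higher in KO, 0.00830% were called and 1.62% had an unadjusted p under 0.05 by limma. The groups did not overlap for 5.06% of them, and their median difference was -0.0055. Of 13 sheddase regulators (iRhoms with Frmd8, tetraspanins and proprotein convertases), 11 were tested, and 9 were higher and 2 lower in KO. Of these, 0 were called in either direction or had an unadjusted limma p under 0.05 (median log2 difference 0.15). Frmd8, which stabilises iRhoms, had 28.4 ± 3.41 FPKM in KO and 25.9 ± 1.63 FPKM in WT (SD, n = 3 each), and the ADAM10 partner Tspan14 had 23.6 ± 5.67 FPKM in KO and 18.4 ± 8.59 FPKM in WT. Rhbdf1, encoding iRhom1, had 16.6 ± 3.89 FPKM in KO and 14.96 ± 3.16 FPKM in WT. Rhbdf2, encoding the ADAM17 partner iRhom2, was at 1.87, 2.42 and 2.32 FPKM in KO and 1.82, 1.49 and 1.36 FPKM in WT, without overlap but with a limma adjusted p of 0.9999. Rhbdf2 was assembled over 67.9% of its bases in WT replicate 1 and over 91.2% to 91.6% in the others. Bases not assembled count as 0, and whether its groups overlap over assembled bases only was not tested. Another ADAM10 partner, Tspan33, had 4.82 ± 0.918 FPKM in KO and 3.79 ± 1.09 FPKM in WT. Assembled extent was also low for Tspan33 in WT replicate 1 (48.4%) and for Tspan14 in WT replicate 3 (48.3%). The convertase gene Pcsk7 was at 6.48, 8.22 and 8.94 FPKM in KO and at 6.13, 0 and 8.04 FPKM in WT, where nothing was assembled in WT replicate 2. Tspan10 was listed at 0 in all 6 libraries.

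Of 9 other ADAM genes, 7 were tested, 3 were higher and 4 lower in KO, and 0 were called (median -0.0089), with 1, Adam8, at an unadjusted p under 0.05. Adam8, a protease known from myeloid cells, was at 5.43, 5.61 and 9.19 FPKM in KO and at 2.45, 4.55 and 4.53 FPKM in WT, without overlap, at a difference of 0.68 ± 0.27 SE and a limma adjusted p of 0.9999. The microglia and macrophage markers given above ran the same way, with 9 of 9 tested members higher in KO, beside 48.6% of all tested genes. The part of these markers in the Adam8 values was not tested. Adam8 was assembled over 62.5% of its bases in WT replicate 1 and over 98.5% or more in the others, and the part of this was not tested either. Adam15 had 21.8 ± 2.51 FPKM in KO and 18.7 ± 4.72 FPKM in WT, and Adam12 12.996 ± 3.85 FPKM in KO and 13.2 ± 5.45 FPKM in WT (SD, n = 3 each). Adam22 and Adam23, which lack protease activity, had 4.46 ± 0.357 and 1.78 ± 0.392 FPKM in KO and 5.09 ± 0.375 and 2.38 ± 0.508 FPKM in WT. Adam22 was lower in KO without overlap (4.06, 4.76 and 4.55 FPKM in KO and 4.97, 4.79 and 5.51 FPKM in WT), at a limma adjusted p of 0.9999. Of all tested genes, KO lay above WT without overlap in 2.03% and below in 3.03%. Adam28 and Adam33 were listed at 0 throughout.

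Of 18 other MMP genes, 8 were tested, 5 were higher and 3 lower in KO, and 0 were called or had an unadjusted p under 0.05 (median 0.11). The highest were the membrane-type members Mmp16 (13.05 ± 3.14 FPKM in KO and 18.6 ± 5.88 FPKM in WT), Mmp24 (9.65 ± 1.62 FPKM in KO and 9.99 ± 1.59 FPKM in WT) and Mmp17 (8.26 ± 0.801 FPKM in KO and 7.49 ± 2.41 FPKM in WT). Mmp16 was assembled over 34.4% of its bases in KO replicate 3 and over 94.5% or more in the others. In WT replicate 1, Mmp17, Mmp11 and Mmp19 were assembled over 31.7%, 46.5% and 25.9%, the lowest extent of each. Mmp11 had 2.52 ± 0.945 FPKM in KO and 2.03 ± 0.797 FPKM in WT, and Mmp19 1.29 ± 0.415 FPKM in KO and 1.01 ± 0.0507 FPKM in WT. Mmp7, Mmp8, Mmp10, Mmp13, Mmp21 and Mmp27 were listed at 0 in all 6 libraries.

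Of 10 beta-secretase and intramembrane protease genes, 6 were higher and 4 lower in KO and 0 were called or had an unadjusted p under 0.05 (median 0.066). Psenen, Aph1a and Ncstn, encoding gamma-secretase subunits, had 71.4 ± 3.72, 34.0 ± 5.93 and 31.8 ± 4.26 FPKM in KO and 80.0 ± 7.74, 28.1 ± 6.19 and 28.9 ± 3.00 FPKM in WT (SD, n = 3 each). Psen2 had 6.17 ± 0.626 FPKM in KO and 5.08 ± 0.375 FPKM in WT. Bace1 was at 6.71, 6.31 and 6.72 FPKM in KO and at 21.8, 29.9 and 6.09 FPKM in WT. It was assembled over 100% of its bases in WT replicates 1 and 2 and over 31.4% in the other 4 libraries.

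Of 33 surface proteins known to be shed, 30 were tested, 19 were higher and 11 lower in KO, and 0 were called or had an unadjusted p under 0.05 (median 0.032). The most abundant were Sdc3, a syndecan (124.4 ± 11.9 FPKM in KO and 123.4 ± 19.6 FPKM in WT), Aplp2, an APP relative (121.5 ± 2.44 FPKM in KO and 126.4 ± 5.79 FPKM in WT), and Tnfrsf1a, the TNF receptor (71.0 ± 4.92 FPKM in KO and 59.3 ± 7.82 FPKM in WT). Tnfrsf1a was assembled over 67.8% of its bases in WT replicate 2 and over 95.8% or more in the others. Notch2, an ADAM10 substrate, had 8.31 ± 1.09 FPKM in KO and 6.45 ± 0.582 FPKM in WT. Sdc4 had 14.3 ± 2.63 FPKM in KO and 11.3 ± 4.36 FPKM in WT.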

How the data were processed

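RNA-seq transcript assemblies of 3 KO and 3 WT libraries were analysed; groups and replicate numbers come from the sample titles. The submitters' processing notes name the aligner TopHat2 (2.1.1), Cufflinks (2.2.1), Cuffdiff (2.2.1), FastQC and the build mm10. The authors deposited an FPKM value per assembled transcript, written as a text attribute and not as a plain number. Assembled exons were intersected (bedtools 2.31.1) with the basic gene models of GENCODE M21, on the same build. FPKM of transcripts of 300 nt or more, on the gene's strand or unstranded, was summed at each exonic base held by 1 gene alone and averaged over these bases, for protein-coding and long noncoding genes with at least 200 such bases. The files used here hold FPKM and no read counts. Depth was estimated from the assembler's confidence bounds for single-exon transcripts, whose implied fragment numbers were within 0.1 of whole for 33.9% to 58.5%, so no count test was run. Genes averaging at least 1 FPKM were tested with limma (3.58.1, R 4.3.3) on log2(FPKM + 1), with an intensity trend and genotype as the factor, two-sided, with Benjamini-Hochberg adjustment over all 12045 genes; the procedure was first tested on simulated data. Junctions and single exons were read from transcripts of any length, against a principal protein-coding transcript without introns under 60 nt. The shared numbers in the titles were taken to pair KO with WT libraries, because deviations from the group means went together within each pair (r across genes of 0.369, 0.197 and 0.293). The values between pairs (-0.277 to 0.0234) add no support of their own. Deviations within a group sum to 0, so the 3 values within pairs are not independent of each other. Positive values within pairs also push those between pairs down. The named genes are the 10 members and, from each list, the 3 most abundant tested genes and the 3 with the smallest p. Of the marker lists, the top gene is named for astrocytes and endothelium only. The other astrocyte and endothelial markers were named outside this rule. Genes listed at 0, Cspg4 and the synapsin genes were added after their values were seen. The members and lists were chosen with earlier results of these data known. Alternatives covered the pseudocount, the filter, scaling, the replicate block, the way a gene's value is built, and left-out libraries.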

Additional observations from a re-analysis of the deposited data

How the results depend on the processing

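Under the 15 alternatives the 10 genes kept a count of 0 called, and the smallest limma adjusted p of any of them was 0.809. Of 150 values, 127 kept their direction and 23 did not; all are differences in log2(FPKM + pseudocount), KO minus WT, with a pseudocount of 1 unless given. With FPKM summed over all transcripts, which moved the median of all genes to -0.25, Adam17 was at -0.37, Mmp14 at -0.15, Reck at -0.57 and Timp4 at -1.14. Over assembled bases only, Reck was at -0.24 and Timp4 at -0.14, and with no length minimum Reck was at -0.054 and Timp4 at -0.078. Reck was also at -0.00098 with a pseudocount of 5 and at -0.022 without the replicate pair 1. Leaving out 1 library gave ranges of -0.18 to 0.013 for Adam10, -0.030 to 0.20 for Adam17, 0.068 to 0.27 for Mmp14, -0.23 to 0.21 for Reck, -0.50 to 0.053 for Timp1, -0.061 to 0.22 for Timp2, -0.077 to 0.047 for Timp3 and -0.022 to 0.18 for Timp4. Over all genes, 1 was called, but 0 with a pseudocount of 0.1 or 5, with the replicate block or with summed FPKM, 2 over assembled bases only and 27 without the replicate pair 1; leaving out 1 library gave 1 to 17, with 17 without KO replicate 1, 3 without KO replicate 3 or WT replicate 1, and 2 without KO replicate 2 or WT replicate 2. With the replicate block, which pairs same-numbered libraries, 510 genes had an unadjusted p under 0.05 but 0 were called, and the limma adjusted p of the 10 genes ran from 0.809 to 0.995; it changed no other call. The cause of these changes was not tested. With libraries of 3 against 3, changes inside the intervals given are not excluded. The intervals are not adjusted for the number of genes tested, so a change outside them can still go uncalled. That of Adam8 (0.014 to 1.34) excluded 0, yet its limma adjusted p was 0.9999. Reck and Timp4 lie under 4 FPKM.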
